A study of Rattus norvegicus with 5 samples.

Results

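The genes described here build the extracellular matrix other than collagens I, III and V. They are 53 rat genes for basement membrane and other collagens, elastic fibre proteins, adhesive glycoproteins, proteoglycans, and the enzymes and chaperones that process and crosslink collagen. Members were chosen by name, though with earlier results of these data known. Of the 53 genes, 39 have a probe of that name in the platform annotation, and 32 were detected on at least 1 array (detection p under 0.01) and tested. They are part of 7051 named genes, and of 9737 probes with or without a gene name, that passed the same filter. The other 7 genes with a probe, Col6a2, Eln, Fbn2, Mfap2, Mfap4, Thbs2 and Fmod, were not detected on any of the 5 arrays, with lowest detection p between 0.0133 for Mfap2 and 0.498 for Eln. Not analysed here, for lack of a probe of that name, are Col4a2, Nid1, Nid2, Lama4, Lama5, Lamb1, Col6a3, Col11a1, Col12a1, Col16a1, Fbln2, Efemp2, Tnc and Thbs1.

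Hepatic stellate cells are the vitamin A storing cells that lie between hepatocytes and the sinusoidal endothelium. In injured liver, and on culture plastic, they turn into myofibroblasts and become the main source of the matrix that forms scar. That matrix is more than fibrillar collagen. Laminins, nidogens and collagen IV form a sheet under epithelia and endothelia, elastic fibres form on fibrillin microfibrils, and small proteoglycans such as decorin coat collagen fibrils. Prolyl and lysyl hydroxylases modify new collagen chains inside the cell, and lysyl oxidases crosslink collagen and elastin outside it.

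Calcitriol is 1,25-dihydroxyvitamin D3, the hormone that activates the vitamin D receptor, and the study asked how vitamin D ligands affect activated stellate cells. All RNA came, per the labels, from primary stellate cells of male Wistar rats aged 10 weeks. The groups were 2 arrays of day 3 cells that had calcitriol (100 nM, 24 h), 2 arrays of day 3 cells that had vehicle, and 1 array labelled as freshly isolated cells without treatment. No label says whether replicate arrays came from different cultures or animals. The p-values then rest on the spread of these arrays alone, and that spread may be technical. All arrays were on the same chip, and chip position cannot be told apart from group.

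Values below are normalized log2 signals of a probe, unless deposited signals in intensity units are named, and a change is a difference of such values. The arrays had median deposited signals of 110.3 to 121.3 units and 8316 to 9112 detected probes. Cyp24a1, the vitamin D receptor target that degrades calcitriol, was at 8.81 and 8.90 with calcitriol, at 5.12 and 4.84 with vehicle, where neither array detected it, and at 8.09 on the array labelled freshly isolated. It was at least 6.71-fold higher with calcitriol than with vehicle (adjusted p = 0.00153 in limma), a lower bound against the lowest detected level of the vehicle arrays. The array labelled freshly isolated, though labelled as untreated, thus had Cyp24a1 above both vehicle arrays and below both calcitriol arrays. Why it did so was not tested, which leaves its label in doubt. Over the 9737 probes that array correlated with the calcitriol arrays at 0.9892 to 0.9902 and with the vehicle arrays at 0.9803 to 0.9808, figures across genes on arrays of the same chip. Every value that rests on it below carries that doubt, and calcitriol against vehicle is also given without it.

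Markers of the labelled cells and of other liver cells were read beside the matrix genes. Of 16 stellate markers 12 have a named probe and 10 were detected, among them Des, Reln, Hand2 and the collagen I and III genes, while Gfap and Ngfr were not detected and Lrat and Acta2 have no probe of that name. The 10 summed to 42605 and 52412 units with calcitriol, 51090 and 44656 with vehicle and 51986 on the array labelled freshly isolated. Sums of different lists rest on different probes, so they are not shares of cells. All 12 macrophage markers with a probe were detected on all 5 arrays, with a summed level of 95858 and 96748 units with calcitriol, 90201 and 98783 with vehicle and 100705 on the array labelled freshly isolated. Of these 12, Ptprc, the leukocyte surface phosphatase CD45, was called in limma. It was lower with calcitriol than with vehicle (-1.23 ± 0.18, adjusted p = 0.038 in limma) and higher with vehicle than on the array labelled freshly isolated (1.59 ± 0.22, adjusted p = 0.0393 in limma). Sinusoidal endothelial markers (5 of 6 with a probe detected, Cdh5 not) summed to 1595 and 1538 units with calcitriol, 1693 and 1764 with vehicle and 1093 on the array labelled freshly isolated. Of these 5, Emcn, an endothelial sialomucin, was called higher with vehicle than on the array labelled freshly isolated, which did not detect it (adjusted p = 0.0243 in limma). Ptprc and Emcn are named because they were called. Of 10 hepatocyte markers with a probe 8 were not detected, among them Alb, Ttr, Cps1 and Hnf4a. The 2 that were, Serpina1 and Tf, summed to 1907 and 1741 units with calcitriol, 2006 and 1809 with vehicle and 1874 on the array labelled freshly isolated. The biliary markers Krt7 and Spp1 summed to 22382 and 21059 units with calcitriol, 25186 and 24964 with vehicle and 21076 on the array labelled freshly isolated, while Krt19 and Epcam were not detected. Most of that sum was Spp1, which is also on the list of other matrix genes below, so it does not by itself show biliary cells. Of 7 mesothelial and portal fibroblast markers with a probe 5 were detected, on all 5 arrays each. They were Msln, Krt8, Thy1, Entpd2 and Pdpn, while Wt1 and Gpm6a were not detected. These 5 summed to 7537 and 7848 units with calcitriol, 7562 and 6902 with vehicle and 7380 on the array labelled freshly isolated. In limma 0 of them were called in any comparison. The markers show RNA of other cell types in these samples, so a smaller share of a cell type and less RNA per cell cannot be told apart, and their part in the results below was not tested.

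The comparison of calcitriol with vehicle asked whether the hormone changed the matrix program of day 3 cells. No matrix gene passed the threshold. In limma 0 of 32 genes had an adjusted p under 0.05, where 1.83% of all probes did (178 of 9737, 114 higher and 64 lower). Median scaling, in which each array is scaled to its median in place of quantile normalization, called 237 higher and 61 lower. The count over all probes was 0 without calcitriol array 1 or 2 (1355 and 875 probes at an unadjusted p under 0.05), 73 without vehicle array 1 and 83 without vehicle array 2, with 0 matrix genes called each time. At an unadjusted p under 0.05 there were 2 genes of 32, Sparc and Tgfbi, both lower with calcitriol, beside 15.8% of all probes. The median change of the 32 genes was -0.01, against 0.00 over all probes, with 16 genes above 0 and 16 below. Median scaling put the all-probe median at 0.17 and the median of the matrix genes at 0.18. The genes thus lay 0.01 under the array as a whole as processed here and 0.01 over it after median scaling.

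The intervals show how closely the fitted changes are set by the spread of these arrays. That spread may be technical, so the intervals set no limit on a change between cultures or animals. They also leave out the choice of normalization. For 29 of the 32 genes the 95% interval of the change lay within 1 log2 unit of 0, that is under a 2-fold change in either direction, as it did for 88.4% of all probes. The 3 exceptions were Tgfbi, Sparc and Fbln1. Calcitriol arrays lay above both vehicle arrays for 7 of 32 genes (23.3% of all probes) and below both for 9 (24.4% of all probes). These shares are near those of the array as a whole.

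**Figure D1:**
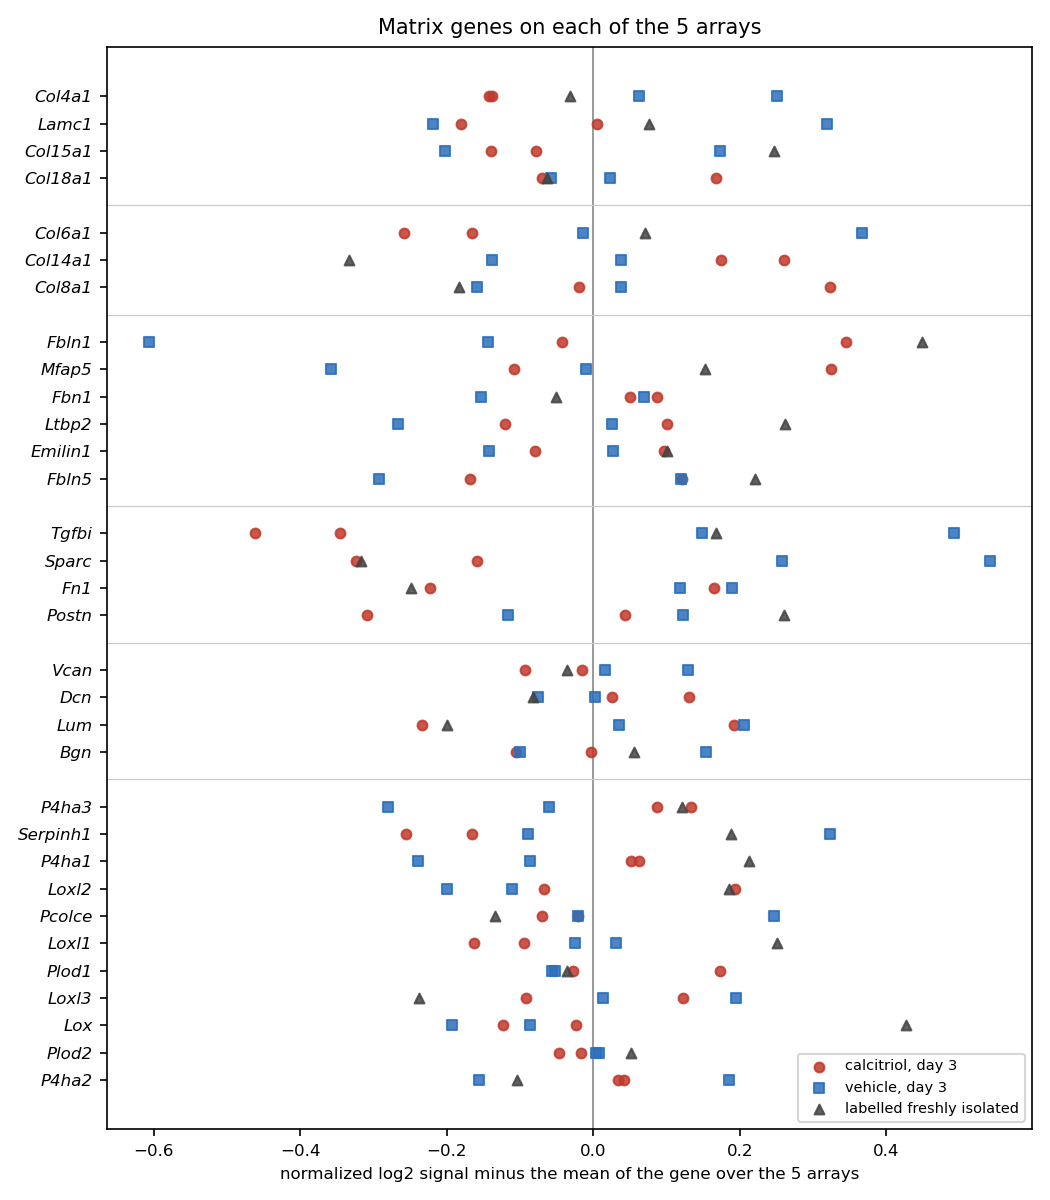
Each row is 1 of the 32 tested matrix genes and each point 1 array, drawn as the normalized log2 signal minus that gene's mean over the 5 arrays. Lines separate basement membrane genes, other collagens, elastic fibre genes, adhesive glycoproteins, proteoglycans, and processing and crosslinking genes from top to bottom. The red calcitriol points lie wholly left of the blue vehicle points for 9 genes, among them Sparc and Tgfbi, and wholly right of them for 7, among them Fbln1.

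Adhesive and matricellular glycoproteins, which link cells to matrix or tune that contact, held both genes with an unadjusted p under 0.05 for calcitriol against vehicle. Sparc encodes osteonectin, a secreted protein that binds collagen. Its level was 10.98 and 10.82 on the calcitriol arrays, 11.40 and 11.68 on the vehicle arrays and 10.82 on the array labelled freshly isolated. Both vehicle arrays were above the other 3. The change with calcitriol was -0.64 ± 0.16 (SE, n = 2 per group), or 1.56-fold lower, with a 95% interval of -1.03 to -0.25, and did not pass (adjusted p = 0.142 in limma). It did pass without background correction (adjusted p = 0.0216 in limma), in the series value table (0.022) and with a variance trend (0.00464), while after median scaling the change was -0.43 (adjusted p = 0.455 in limma). Over 13 alternatives it stayed below 0, between -0.78 and -0.43, with adjusted p between 0.00464 and 0.554 in limma.

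In the deposited signals of Sparc, too, both vehicle arrays were above both calcitriol arrays and the array labelled freshly isolated. The order within each day 3 group differed from that after normalization. The deposited signals were 2009 and 2049 units with calcitriol, with bead standard errors of 63.8 and 66.7. With vehicle they were 2797 and 2574 units, with bead standard errors of 162.9 and 80.5. The array labelled freshly isolated had 2195 units and a bead standard error of 102.5. The summed sinusoidal endothelial markers, given above, were also lower on both calcitriol arrays than on both vehicle arrays. So was the sum of the biliary list, most of which is Spp1, a gene also on the list of other matrix genes. The median change of the 5 endothelial markers was 0.080 and that of the biliary markers -0.01, with 0 called in either list, and their part in the Sparc values was not tested. Bead errors cover the measurement of a probe on an array, not the spread between cultures. The mean signal over all probes was 738.5 and 817.3 units on the calcitriol arrays and 763.5 and 608.2 on the vehicle arrays, and its part in the Sparc values was not tested beyond the normalizations above.

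Tgfbi, a secreted adhesion protein named for its induction by TGF-beta, was near the detection limit. It was at 5.63 and 5.75 on the calcitriol arrays, where it was not detected, at 6.24 and 6.59 on the vehicle arrays and at 6.26 on the array labelled freshly isolated. On the background-corrected scale it was at least 1.35-fold lower with calcitriol, set against the lowest detected level of those arrays, and the fitted change of -0.72 ± 0.16 did not pass (adjusted p = 0.12 in limma, and 0.103 to 0.461 over the alternatives). That bound depends on the correction, since the change without it was -0.35. Unlike Sparc, Tgfbi was after normalization on the array labelled freshly isolated at a level between the vehicle arrays. In the deposited signals that array was highest, at 165.7 units against 159.8 and 154.3 with vehicle.

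Fn1, fibronectin, which cells assemble into fibrils that other matrix proteins bind, was at 12.78 and 12.39 with calcitriol, 12.81 and 12.73 with vehicle and 12.37 on the array labelled freshly isolated. The calcitriol arrays differed from each other by more than calcitriol did from vehicle (-0.18 ± 0.17, adjusted p = 0.652 in limma), and without calcitriol array 2 the change was 0.010. Postn, periostin, a collagen-binding protein of scar tissue, had a change of -0.14 ± 0.18 with overlapping groups. All 4 tested glycoproteins had a value below 0, with a median of -0.41, and all 4 lay below the all-probe median after median scaling, though Fn1 was then above 0 (0.031).

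Sparc and Tgfbi were the genes of smallest p for calcitriol against vehicle, so the sequence before their starts is shown. SMAD proteins, which carry the TGF-beta signal, bind DNA at a CAGACA core, and the vitamin D receptor binds 2 half-sites in a row. Each stretch is the 250 bases before the annotated start, from RefSeq in build GRCr8, on the minus strand, at chr10:40038817-40039066 for Sparc and chr17:7990114-7990363 for Tgfbi. Capitals mark the CAGACA core, here read on the other strand.
Sparc: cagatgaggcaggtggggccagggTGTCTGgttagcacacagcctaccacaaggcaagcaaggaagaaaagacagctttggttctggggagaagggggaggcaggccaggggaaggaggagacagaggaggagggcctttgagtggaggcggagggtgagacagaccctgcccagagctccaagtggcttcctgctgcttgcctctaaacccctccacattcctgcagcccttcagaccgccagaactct
Tgfbi: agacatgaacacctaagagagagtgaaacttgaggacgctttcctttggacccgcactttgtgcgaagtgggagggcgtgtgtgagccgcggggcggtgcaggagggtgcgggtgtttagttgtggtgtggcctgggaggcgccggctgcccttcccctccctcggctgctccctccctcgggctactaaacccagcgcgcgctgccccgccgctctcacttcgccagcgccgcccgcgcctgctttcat

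The Sparc stretch holds the core once, beginning 226 bases before the start, and the Tgfbi stretch does not hold these letters. Promoters were found for 24 of the 32 tested genes. CAGACA on either strand was in 5 of the 24 (20.8%), those of Col8a1, Fbn1, Loxl1, P4ha3 and Sparc, and in 17.2% of 33469 promoters of the same length. The vitamin D receptor pattern searched was a direct repeat of half-sites with 3 bases between, on either strand. The half-site was AGGTCA, and the variants with AGTTCA, with GGGTCA or with GGTTCA were accepted too. It was in 0 of the 24 and in 0.0926% of all promoters. The AP-1 letters TGANTCA were in 1 of the 24, that of Col6a1, and in 6.34% of all. A match says only that the letters are present.

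**Figure D2:**
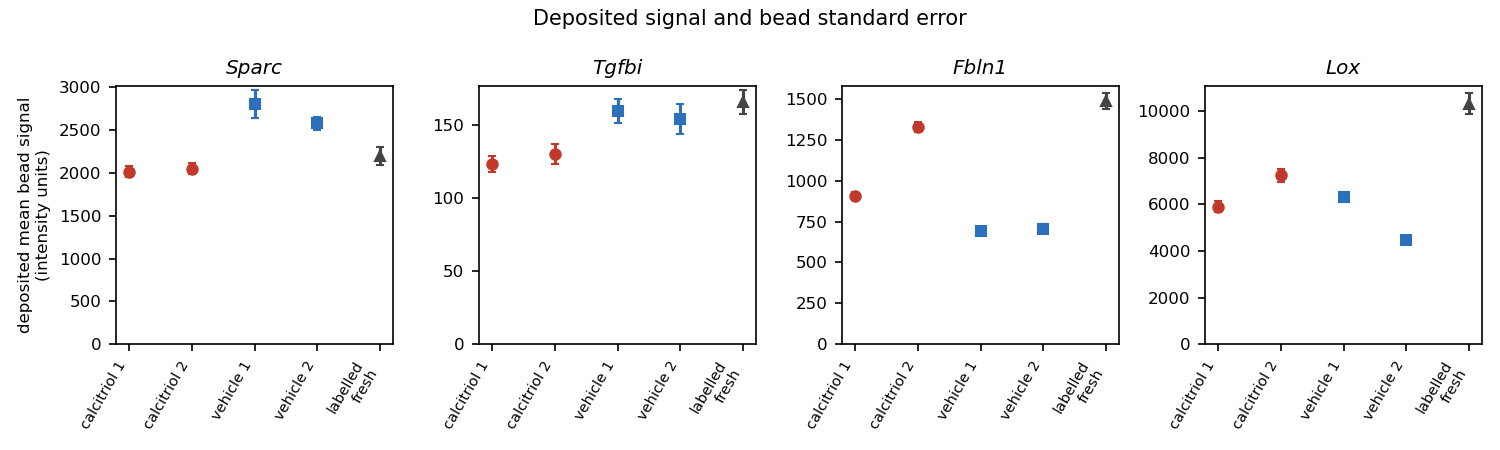
Deposited mean bead signal (intensity units, axis from 0) of 4 matrix genes on the 5 arrays, with bars for the standard error over the beads of the probe. Sparc and Tgfbi are lower on both calcitriol arrays than on both vehicle arrays, and Fbln1 and Lox are highest on the array labelled freshly isolated, at 1487 and 10310 units.

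Among basement membrane genes, 4 of 10 were tested and 0 passed. Col4a1, a chain of the collagen IV network, was at 12.20 on each calcitriol array, 12.40 and 12.59 on the vehicle arrays and 12.31 on the array labelled freshly isolated. The groups did not overlap, and the change was -0.30 ± 0.14 (adjusted p = 0.369 in limma). Lamc1, the gamma chain that most laminins share, was at 8.16 and 7.97 with calcitriol, 7.93 and 8.47 with vehicle and 8.23 on the array labelled freshly isolated. Its vehicle arrays spanned the calcitriol values. The change was -0.14 ± 0.21, and 0.13 without vehicle array 2.

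Col15a1 and Col18a1 encode collagens that carry glycosaminoglycan chains and anchor basement membranes to the tissue beneath. Col15a1 was at 7.44 and 7.38 with calcitriol, 7.69 and 7.32 with vehicle and 7.77 on the array labelled freshly isolated. The change with calcitriol was -0.09 ± 0.17 for Col15a1 and 0.07 ± 0.14 for Col18a1, and in both genes the groups overlapped. After median scaling Col15a1 (0.037) and Lamc1 (0.0090) were above 0.

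Of the other collagens 3 of 8 were tested, and they did not share a direction. Col6a1, a chain of the collagen VI beaded filament, was at 8.83 and 8.92 with calcitriol, 9.07 and 9.45 with vehicle and 9.16 on the array labelled freshly isolated, a change of -0.39 ± 0.17 (adjusted p = 0.35 in limma). Col14a1, which associates with the surface of collagen fibrils, was at 7.47 and 7.55 with calcitriol, 7.33 and 7.15 with vehicle and 6.96 on the array labelled freshly isolated. Its change was 0.27 ± 0.14 (adjusted p = 0.413 in limma), so that the groups did not overlap in either gene but stood in opposite order.

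Col8a1, a short-chain collagen of vessel walls and remodelling tissue, was at 12.09 and 11.74 with calcitriol, 11.61 and 11.80 with vehicle and 11.58 on the array labelled freshly isolated. Calcitriol array 1 was highest, calcitriol array 2 lay between the vehicle arrays, and the change was 0.21 ± 0.17.

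All 6 tested elastic fibre genes had a value above 0 with calcitriol, and 0 of 6 passed. They were Fbln1, Mfap5, Fbn1, Ltbp2, Emilin1 and Fbln5, with changes between 0.06 and 0.53 and a median of 0.11, and 6 of 6 also lay above the all-probe median after median scaling. Calcitriol and vehicle arrays overlapped in 5 of the 6, all but Fbln1. Both calcitriol arrays lay above both vehicle arrays for 23.3% of all probes. Fbln1, fibulin 1, a glycoprotein of elastic fibres and basement membranes, was at 9.77 and 10.15 with calcitriol, 9.20 and 9.67 with vehicle and 10.26 on the array labelled freshly isolated. Calcitriol was above vehicle on both arrays, and the array labelled freshly isolated was highest. The change was 0.53 ± 0.22 (95% interval -0.02 to 1.07, adjusted p = 0.328 in limma), and ran from 0.29 without vehicle array 1 to 0.76 without vehicle array 2.

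Fbn1 is fibrillin 1, the main component of microfibrils, and Mfap5 a protein that sits on them. Mfap5 was at 8.89 and 9.33 with calcitriol, 8.99 and 8.64 with vehicle and 9.15 on the array labelled freshly isolated (0.29 ± 0.21). Fbn1 was at 9.04 and 9.00 with calcitriol, 9.02 and 8.80 with vehicle and 8.90 on the array labelled freshly isolated (0.11 ± 0.14). In neither gene were the groups apart, and without vehicle array 2 the change of Fbn1 was -0.00045.

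Ltbp2, a microfibril protein of the latent TGF-beta binding family, was at 9.85 and 10.07 with calcitriol, 9.71 and 10.00 with vehicle and 10.24 on the array labelled freshly isolated (0.11 ± 0.17, and -0.035 without vehicle array 1). Emilin1, a glycoprotein found between elastin and microfibrils, and Fbln5, which is needed for elastic fibre assembly in mice, had changes of 0.07 ± 0.14 and 0.06 ± 0.19. In all 3 genes calcitriol and vehicle arrays overlapped.

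Proteoglycans differed little, with changes between -0.14 and 0.11 in the 4 of 5 genes tested. Dcn, decorin, which coats collagen fibrils and binds TGF-beta, was at 14.73 and 14.63 with calcitriol, 14.53 and 14.61 with vehicle and 14.52 on the array labelled freshly isolated (0.11 ± 0.13). Vcan, versican, a large hyaluronan-binding proteoglycan, was at 11.27 and 11.34 with calcitriol, 11.49 and 11.37 with vehicle and 11.32 on the array labelled freshly isolated (-0.13 ± 0.13, and 0.099 after median scaling). In both genes the groups were barely apart, and the 95% intervals ran from -0.21 to 0.44 for Dcn and from -0.45 to 0.20 for Vcan.

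Lum, lumican, and Bgn, biglycan, belong with decorin to the leucine-rich proteoglycans that bind collagen. Lum was at 6.68 and 7.11 with calcitriol, 7.12 and 6.95 with vehicle and 6.72 on the array labelled freshly isolated (-0.14 ± 0.18). The calcitriol arrays of Lum lay 0.43 apart, and without calcitriol array 1 the change was 0.072. Bgn had a change of -0.08 ± 0.15 with overlapping groups.

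The processing and crosslinking group was the best covered, with 11 of 11 genes tested, and 0 passed. Calcitriol arrays lay above both vehicle arrays for 4 of the 11, P4ha3, P4ha1, Loxl2 and Plod1 (23.3% of all probes). They lay below both for 4, Serpinh1, Pcolce, Loxl1 and Plod2 (24.4% of all probes). P4ha1, a catalytic subunit of the enzyme that hydroxylates proline in collagen, was at 11.11 and 11.10 with calcitriol, 10.80 and 10.96 with vehicle and 11.26 on the array labelled freshly isolated. The calcitriol arrays lay 0.01 apart and both were above the vehicle arrays, with a small change (0.22 ± 0.13, adjusted p = 0.479 in limma).

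Serpinh1, the collagen chaperone HSP47, was at 7.68 and 7.59 with calcitriol, 7.75 and 8.17 with vehicle and 8.03 on the array labelled freshly isolated (-0.33 ± 0.18, adjusted p = 0.434 in limma). P4ha3, a further prolyl hydroxylase subunit, was detected on 1 calcitriol array and on no other array. It was at 5.90 and 5.95 with calcitriol, 5.54 and 5.76 with vehicle and 5.94 on the array labelled freshly isolated. These values are at the detection limit and give no fold.

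Lox, lysyl oxidase, was at 12.56 and 12.66 with calcitriol, 12.59 and 12.49 with vehicle and 13.11 on the array labelled freshly isolated. Calcitriol and vehicle overlapped (0.07 ± 0.13, 95% interval -0.26 to 0.39). The change of the related oxidases was 0.22 ± 0.15 for Loxl2, -0.09 ± 0.15 for Loxl3 and -0.13 ± 0.13 for Loxl1. At a further probe of Loxl1 it was -0.02 ± 0.15, and the groups overlapped.

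Plod1 and Plod2, which hydroxylate lysine in collagen, had changes of 0.13 ± 0.14 and -0.04 ± 0.12. Pcolce, which enhances cleavage of the procollagen end by its protease, had a change of -0.16 ± 0.15, and P4ha2, the remaining prolyl hydroxylase subunit, of 0.02 ± 0.16. None of the 11 intervals reached 1 log2 unit.

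**Figure D3:**
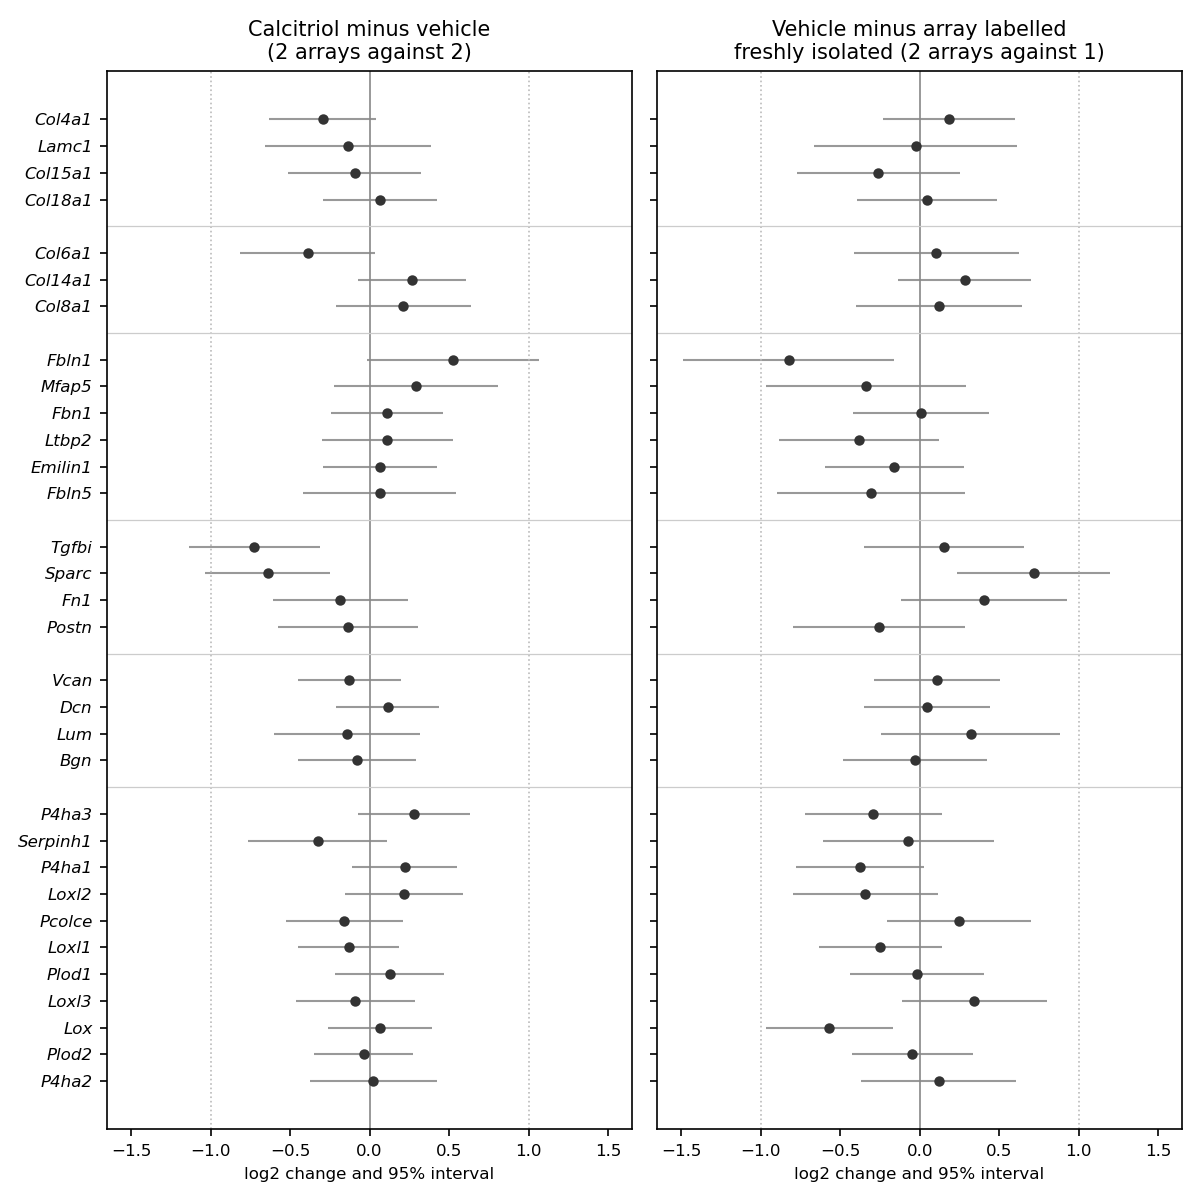
Log2 change (points) and 95% interval (bars) of the 32 matrix genes for calcitriol minus vehicle (left, 2 arrays against 2) and vehicle minus the array labelled freshly isolated (right, 2 arrays against 1), in the gene order of the plot by array. Dotted lines stand at a 2-fold change. The intervals of Tgfbi and Sparc lie below 0 on the left, and those of Sparc above 0 and of Fbln1 and Lox below 0 on the right.

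The vehicle arrays were next set against the array labelled freshly isolated, which would show the change with culture if that label held. Again 0 of 32 genes passed in limma, where 1.53% of all probes did (47 higher and 102 lower, or 56 and 220 after median scaling). Without calcitriol array 1 or 2 the count over all probes was 0 in limma (1155 at an unadjusted p under 0.05). It was 60 when vehicle array 1 was left out and 57 when vehicle array 2 was, with 0 matrix genes called each time. At an unadjusted p under 0.05 there were 3 genes, Sparc, higher with vehicle, and Lox and Fbln1, lower with vehicle, beside 13.9% of all probes. The median change was -0.02, against 0.01 over all probes, and 30 of 32 intervals lay within 1 log2 unit of 0, as did 80% of all probes. This comparison shares its vehicle arrays with that of calcitriol, so each gene's changes in both are given side by side and not related to each other.

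Sparc was higher with vehicle by 0.72 ± 0.19 (95% interval 0.24 to 1.20, adjusted p = 0.184 in limma), beside -0.64 for calcitriol against vehicle. As with calcitriol it passed without background correction (adjusted p = 0.0371 in limma), in the series value table (0.0378) and with a variance trend (0.00951), and after median scaling it was 0.43 (adjusted p = 0.6 in limma). Sinusoidal endothelial cells also make Sparc, and the summed level of their detected markers given above was higher on both vehicle arrays than on the array labelled freshly isolated (median change 0.71, 1 of 5 called). On the calcitriol arrays that sum was also above the array labelled freshly isolated, while the change of Sparc for calcitriol against it was 0.08 ± 0.19. The part of these cells in the Sparc values was not tested.

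Lox was lower with vehicle by a change of -0.57 ± 0.16 (adjusted p = 0.205 in limma, and 0.0117 with a variance trend), and by a change of -0.84 after median scaling. Fbln1 was lower by a change of -0.82 ± 0.27 (95% interval -1.49 to -0.16, adjusted p = 0.262 in limma, and 0.0257 with a variance trend). The array labelled freshly isolated was above all 4 day 3 arrays in both genes. It was so for 10 of 32 genes (19.5% of all probes) and below all 4 for 6 (19.7% of all probes).

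Of those 10 genes 4 were elastic fibre genes (of 6 tested), Fbln1, Ltbp2, Emilin1 and Fbln5. Another 4 were processing and crosslinking genes (of 11 tested), Lox, Loxl1, P4ha1 and Plod2. At the further probe of Loxl1 that array, at 9.40, was not above vehicle array 2, at 9.44. For 19.5% of all probes the array labelled freshly isolated was above all 4 day 3 arrays. The median change of the 6 elastic fibre genes was -0.32 with vehicle, or 0.33 under the all-probe median, and 0.30 under it after median scaling. Ltbp2 had a change of -0.38 ± 0.20, Mfap5 of -0.34 ± 0.25 and P4ha1 of -0.37 ± 0.16 (adjusted p = 0.393 in limma for P4ha1), and none passed. Those below all 4 day 3 arrays were Col14a1, Col8a1, Fn1, Dcn, Pcolce and Loxl3, with Fn1 at 0.40 ± 0.21 and Col14a1 at 0.28 ± 0.17 for vehicle.

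**Figure D4:**
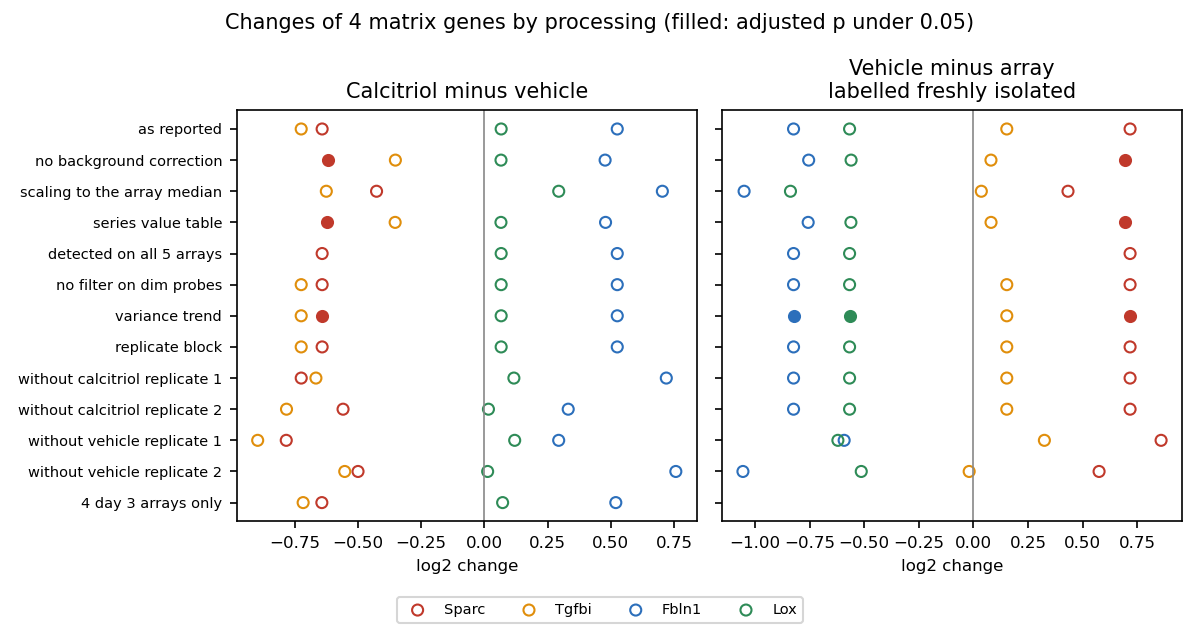
Log2 change of Sparc, Tgfbi, Fbln1 and Lox (colours) under each processing alternative (rows), for calcitriol minus vehicle (left) and vehicle minus the array labelled freshly isolated (right). Filled points have an adjusted p under 0.05, which Sparc reached in 3 rows of each panel and Fbln1 and Lox in 1 row of the right panel.

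The calcitriol arrays were last set against the array labelled freshly isolated. Of all probes 0% passed in limma, where 6.67% had an unadjusted p under 0.05, and 0 of 32 matrix genes passed. The median change of the matrix genes was -0.09, against 0.00 over all probes, with 12 genes above 0 and 20 below. At an unadjusted p under 0.05 there were 3, Col14a1 at 0.55 ± 0.17, Lox at -0.50 ± 0.16 and Tgfbi at -0.57 ± 0.20, with adjusted p from 0.606 to 0.695 in limma. Tgfbi, undetected on the calcitriol arrays, was on the background-corrected scale at least 1.21-fold lower there than on the array labelled freshly isolated. That bound is set against the lowest detected level and depends on the correction. Without it the change was -0.27.

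A further 132 matrix genes, from a list made beside the members, give the wider setting. Of these 83 have a probe of that name and 46 were tested. In limma 0 passed in either direction in any of the 3 comparisons, where 1.83%, 1.53% and 0% of all probes did. At an unadjusted p under 0.05 there were 4, 5 and 6 of the 46, beside 15.8%, 13.9% and 6.67% of all probes. For calcitriol against vehicle the smallest p were those of Tsku, a small leucine-rich proteoglycan (-0.67 ± 0.14, adjusted p = 0.101 in limma, not detected on the calcitriol arrays and at least 1.30-fold lower), Fkbp7, a prolyl isomerase (0.72 ± 0.22), and Adamtsl4, which promotes fibrillin microfibrils (-0.40 ± 0.13). For vehicle against the array labelled freshly isolated they were Tsku (-0.81 ± 0.17), Col7a1, the anchoring fibril collagen (-0.80 ± 0.17), and the matricellular gene Ccn4 (-1.01 ± 0.22), with adjusted p from 0.115 to 0.121 in limma. The same 3 came first for calcitriol against that array, with Tsku at -1.48 ± 0.17, or at least 2.27-fold lower, Ccn4 at -0.95 ± 0.22 and Col7a1 at -0.85 ± 0.17. The median changes of the 46 genes were 0.02, 0.05 and -0.02 in the order of the comparisons above.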

How the data were processed

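Per the labels, biotin-labelled cRNA was read on Illumina bead arrays, and GenomeStudio 2011.1 is named in the submitters' processing notes. Per the file headers, the deposited non-normalized table gives each probe's mean bead intensity, bead standard error, number of beads and detection p-value. The series value table holds deposited intensities that are nearly quantile-identical between arrays. Gene names are those of the platform annotation (13793 of 22523 probes), and promoter sequences are from RefSeq (GRCr8).

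The neqc function (limma 3.58.1, R 4.3.3) inferred the background from the detection p-values, added an offset of 16, quantile-normalized the arrays and took log2, which compresses changes of dim probes. Probes detected (p under 0.01) on at least 1 of 5 arrays were kept, 9737 of 22523. A gene was represented by its probe of highest mean. A model with 1 mean per group (lmFit, eBayes, 2 residual and 3.65 prior degrees of freedom) gave two-sided moderated tests, adjusted by Benjamini-Hochberg over all 9737 probes, with a threshold of 0.05. Where a group was undetected on all its arrays, a fold is a lower bound, on the background-corrected scale, against the lowest detected level. Members' beads numbered 23 to 80 per value (median 42), with a median bead standard error of 4.53% of the signal, and the number of arrays limits the precision of each value. The fit was tested on simulated data with known changes and independent noise. Such data cannot test shared effects of an array, chip position or the choice of normalization.

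Members and gene lists were chosen with earlier results of these data known. Values on every array are given, per role group, for the 3 members of smallest p with calcitriol and the 2 of smallest p for vehicle against the array labelled freshly isolated. Alternatives were no background correction, median scaling, the value table, other filters, a variance trend, a replicate block, each day 3 array left out, the 4 day 3 arrays alone, and the mean of a gene's probes. The labels' replicate numbers 1 and 2 recur in both day 3 groups, and deviations of same-numbered arrays correlated at -0.106, so they were not taken as pairs.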

Additional observations from a re-analysis of the deposited data

How the results depend on the processing

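The number of matrix genes past the threshold was 0 in all 3 comparisons and stayed 0 except in these settings. Without background correction and in the series value table it was 1 (Sparc) for calcitriol against vehicle and 1 (Sparc) for vehicle against the array labelled freshly isolated. With a variance trend it was 1 (Sparc) and 3 (Sparc, Fbln1 and Lox). The cause was not tested. The median change of the 32 genes moved by less than 0.208 log2 units in every setting. That limit is the SD of the array medians over these genes within the day 3 groups. Median scaling moved the median change most. It went from -0.01 to 0.18 for calcitriol against vehicle, and the all-probe median to 0.17. For vehicle against the array labelled freshly isolated it went from -0.02 to -0.22, and the all-probe median to -0.18.

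Counts over all probes, 178, 149 and 0 as reported (calcitriol against vehicle, then each of those groups against the array labelled freshly isolated, with vehicle before calcitriol), were 489, 403 and 35 without background correction, 488, 401 and 30 in the series value table, 298, 276 and 22 after median scaling, and 684, 506 and 51 with a variance trend. Among probes detected on all 5 arrays they were 325 and 282 for the first 2, with fewer probes tested. With 1 day 3 array left out they ran from 0 to 83 and from 0 to 60, the 0 without calcitriol array 1 or 2, in fits with fewer arrays. With the labels' replicate numbers as a block they were 129, 98 and 0, with 0 matrix genes called. With crossed numbers, tried after seeing the data, 204 probes and 0 matrix genes were called for calcitriol against vehicle. On the 4 day 3 arrays alone, normalized without the array labelled freshly isolated, there were 181 probes and 0 matrix genes, and Sparc was at -0.64.

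Of the changes of the 20 genes given by array, 10 of 258 values changed sign for calcitriol against vehicle. Against the array labelled freshly isolated, 11 of 238 values changed sign for vehicle and 6 of 238 for calcitriol. After median scaling these were Col15a1 0.037, Fn1 0.031, Lamc1 0.0090 and Vcan 0.099, where the all-probe median was 0.17, for calcitriol against vehicle, Col4a1 -0.13, Col6a1 -0.10, Col8a1 -0.16, Dcn -0.12, Fbn1 -0.19 and Vcan -0.17 for vehicle against the array labelled freshly isolated, whose all-probe median was then -0.18, and P4ha3 0.0018 for calcitriol against it. With 1 array left out the ranges that crossed 0 were Lum -0.36 to 0.072, Fn1 -0.38 to 0.010, Col15a1 -0.28 to 0.093, Ltbp2 -0.035 to 0.26, Fbn1 -0.00045 to 0.22 and Lamc1 -0.41 to 0.13 for calcitriol against vehicle. They were Fbn1 -0.10 to 0.12, Lamc1 -0.29 to 0.24, Serpinh1 -0.28 to 0.13, Col6a1 -0.085 to 0.30 and Tgfbi -0.020 to 0.32 for vehicle against the array labelled freshly isolated. For calcitriol against that array they were Mfap5 -0.26 to 0.17, P4ha3 -0.035 to 0.012, Sparc -0.0073 to 0.16, Vcan -0.056 to 0.021 and Lum -0.034 to 0.39.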

Other observations

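The gap between replicate arrays was larger for vehicle than for calcitriol among the matrix genes, with a median of 0.11 log2 units between the calcitriol arrays and 0.21 between the vehicle arrays, against 0.16 and 0.17 over all probes. The widest gaps were 0.43 for Mfap5 with calcitriol and 0.54 for Lamc1 with vehicle. In Fbln1 the deposited signals of the calcitriol arrays were 904.2 and 1327 units, with bead standard errors of 25.1 and 28.1. Those of the vehicle arrays were 692.1 and 705.4 units, with bead standard errors of 21.0 and 28.4.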
